A study of Bactrocera dorsalis with 3 samples.

Results

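Early-cleared maternal transcripts are the 175 genes of the oriental fruit fly, Bactrocera dorsalis, whose messenger RNA was abundant in newly laid eggs, had dropped to 0.25 of that level or less in embryos of 2-4 hours, and was still that low at 5-8 hours. They were chosen from 13489 gene models in 3 RNA-seq libraries of whole embryos, aged 0-1 hpo, 2-4 hpo or 5-8 hpo (hours post-oviposition, that is, after egg laying). Each age had 1 library of poly-A-selected RNA, so differences between ages lack a replicate check and carry no p-value. The sources used here name no strain, no treatment and no number of embryos, and do not say whether the eggs were fertilised.

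Members are numbered genes on nuclear (NW_) scaffolds with a span under 100000 bases and at least 10 FPKM at 0-1 hpo. FPKM is a fragment count scaled to transcript length and library size, so it can be compared between genes. With 1 added to each FPKM, a member stood at 0.25 or less of its 0-1 hpo level at 2-4 hpo and again at 5-8 hpo, and was less than 4-fold higher at 5-8 than at 2-4 hpo. The gene SODC, a copper-zinc superoxide dismutase gene at FPKM 330.0, 54.1 and 14.2, was left out by the rule although it met these limits. Levels at all 3 ages therefore chose the members, and their falls are given below as a description.

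A fly egg is laid with messenger RNA and protein that the mother's nurse cells put into the oocyte. In Drosophila, egg activation starts the removal of part of this RNA before the embryo's own genome is active, through RNA-binding proteins such as Smaug that recruit deadenylases to shorten the poly-A tail. A later wave of removal depends on products of the embryo's own genes, among them microRNAs. The name maternal is used here for RNA present at 0-1 hpo, and its source was not measured. Because poly-T beads were used, a shorter poly-A tail and a smaller amount of RNA cannot be told apart. In whole embryos, fewer cells of a type and less RNA per cell cannot be told apart either.

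The 3 libraries held 65069185 to 74817640 reads assigned to genes, so 3 reads, the floor for a gene with 0, correspond to 0.0401 to 0.0461 RPM (reads scaled to the library total). Intervals with fold values are 95% exact intervals from the reads and cover counting error only. Of 5635 numbered genes that met the scaffold, span and level limits at 0-1 hpo, called maternally present genes below, 572 had fallen to 0.25 or less at 2-4 hpo. Of these 572 genes, 212 rose at least 4-fold between 2-4 and 5-8 hpo and form a trough, 175 are the members, 184 met neither limit, and the last is SODC. Members thus made up 3.11% of maternally present genes and 30.6% of those that were low at 2-4 hpo. Over all genes with at least 1 FPKM at either age, 8.28% were at least 4-fold lower at 2-4 than at 0-1 hpo, and 10.4% at 5-8 than at 0-1 hpo. All members are called in both by their rule.

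The members' share of the sequenced RNA was highest in the newly laid egg. Of all assigned reads they held 6.40% in the egg, 0.732% at 2-4 hpo and 0.311% in the oldest embryos, a share 8.73-fold lower at 2-4 than at 0-1 hpo and 2.36-fold lower again at 5-8 hpo. Their median FPKM fell from 61.4 in the egg to 8.03 by 2-4 hpo and 3.88 by 5-8 hpo. The other 5460 maternally present genes had medians of 40.9, 32.1 and 31.5. FPKM 100 or more was reached by 59 members in the egg, by 2 at 2-4 hpo and by 0 at 5-8 hpo. At the other end, 40 members were below FPKM 1 at 5-8 hpo, against 5 at 2-4 hpo.

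**Figure D1:**
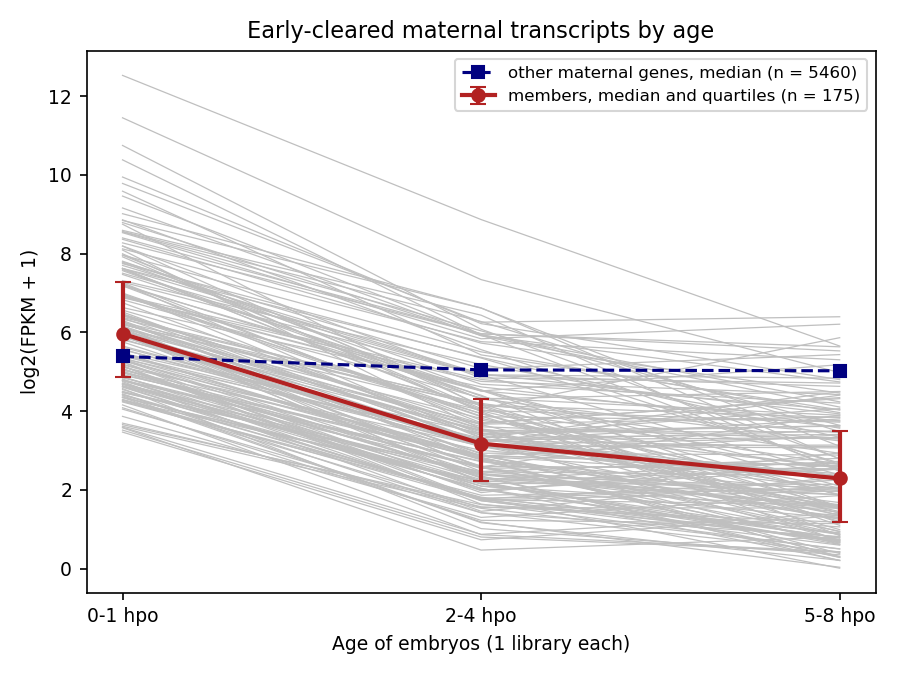
Each grey line is 1 of the 175 members, with log2(FPKM + 1) on the vertical axis and the age of the embryos (1 library each) on the horizontal axis; red points and bars are the members' median and quartiles, and the dashed line is the median of the 5460 other maternally present genes. The members start above the others at 0-1 hpo and lie below them at 2-4 and 5-8 hpo.

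The median log2 ratio of FPKM + 1 among members was -2.71 at 2-4 against 0-1 hpo, with quartiles of -3.21 and -2.36. At 5-8 against 0-1 hpo the median was -3.61, with quartiles of -4.68 and -2.70. The same medians over all genes tested were -0.21 (7310 genes) and -0.17 (8148 genes). The members were not set apart from other genes by a gap at the limit. Among them 41 had a ratio of 2-4 to 0-1 hpo between 0.2 and 0.25, and 48 further genes met every other limit with a ratio above 0.25 and up to 0.3. Just inside stood gene 105229857 at a ratio of 0.2497, and LOC105224140, LOC105225558, LOC105232438 and LOC105222247 at 0.244 to 0.247. Just outside stood LOC105227085 at 0.2502, and LOC105225684, LOC105224291, LOC105228476 and LOC105227071 at up to 0.259. Well inside the limit, 34 members had a ratio of 0.1 or less.

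The number of members depended on how the libraries were scaled to each other. Across genes above FPKM 1 throughout, the median log2 ratio to the egg was -0.23 at 2-4 hpo and -0.37 at 5-8 hpo. Median-of-ratios scaling, which sets such a shift close to 0, raised log2 ratios of FPKM by 0.29 at 2-4 and by 0.37 at 5-8 hpo, and low genes by less on FPKM + 1. With it 115 of the 175 members still met the limits. The members' median log2 ratios of FPKM + 1 were then -2.42 and -3.24.

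**Figure D2:**
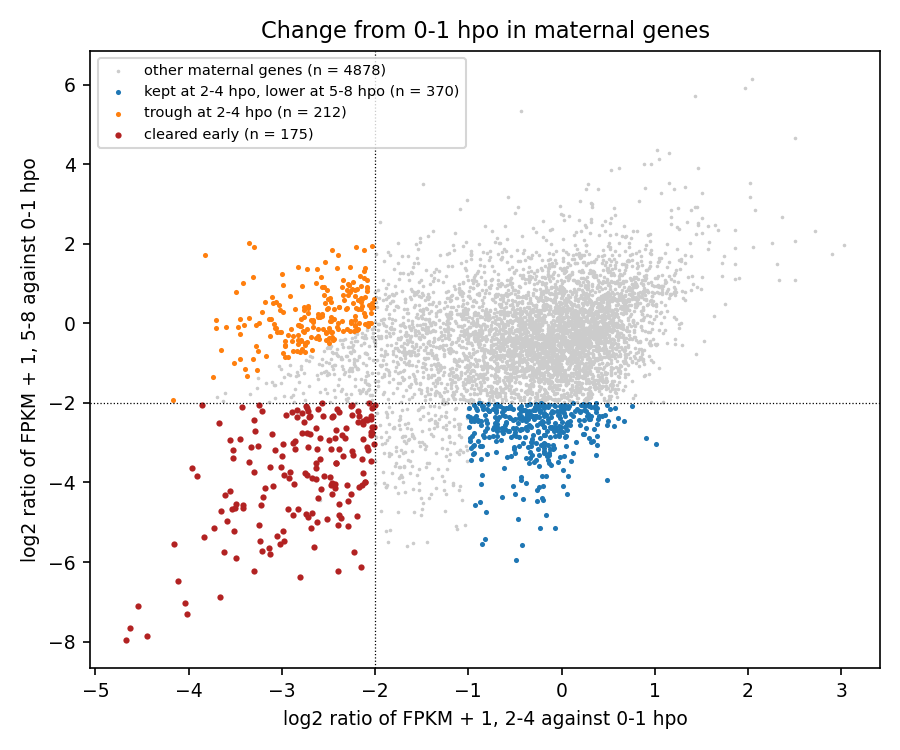
Each point is a maternally present gene, placed by its log2 ratio of FPKM + 1 at 2-4 against 0-1 hpo (horizontal) and at 5-8 against 0-1 hpo (vertical), with dotted lines at the limit of the rule (4-fold lower). The 175 members in red fill the lower left field without a gap at its edges, the 370 genes that were kept at 2-4 hpo lie to the right of it, and the 212 trough genes lie above it.

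At 0-1 and 2-4 hpo, 1 gene held more of the members' reads than any other. LOC105229200, on scaffold NW_011876379.1, at 109502 to 112470 (plus strand), counted 971520 reads in the egg, 73132 by 2-4 hpo and 8908 by 5-8 hpo. It was the gene with most reads of all in the 0-1 hpo library, with 1.43% of them, and ranked 124 at 2-4 hpo and 1866 at 5-8 hpo. Its FPKM went from 5904 to 465 and 49.3, 12.7-fold lower (12.6 to 12.8) and then 9.44-fold lower again (9.23 to 9.65). It held 22.3% of the members' reads at 0-1 hpo. Without it the other members held 4.97% of the reads at 0-1 hpo and 0.620% at 2-4 hpo. A gene on the opposite strand, LOC105229367, overlaps it and stood at FPKM 0.0275, 0.0490 and 0.0351.

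Of the next 4 members by level at 0-1 hpo, 3 were also among the 10 steepest falls at both later ages, LOC105231371 being the exception. LOC105222463 (NW_011876240.1, minus strand, 551069 to 551901) went from FPKM 2798 to 161 and 30.5, and LOC105223182 (NW_011876267.1, plus strand, 415874 to 416595) from 1719 to 66.6 and 5.92. Both are single-exon models, meaning that their exonic length equals their span. LOC105232175 (NW_011876398.1, minus strand, 4772378 to 4773075) went from 1333 to 60.3 and 4.76. LOC105231371 (NW_011876395.1, minus strand, 1896755 to 1904757), a longer gene with a span of 8003 bases, went from 985 to 73.6 and 26.8. These values put every one of the 5 most abundant members at least 12.7-fold below its egg level by 2-4 hpo and at least 36.7-fold below it by 5-8 hpo.

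The other 10 of the 15 highest members started between FPKM 385 and 880. LOC105225211 was the only one of the 15 that was higher at 5-8 than at 2-4 hpo, at FPKM 880, 75.5 and 83.2. LOC105222960 went from 768 to 42.0 and 15.4, LOC105229682 from 704 to 60.6 and 17.8, and LOC105230544 from 571 to 59.3 and 16.2. LOC105224016 went from 463 to 46.2 and 5.25, and LOC105224939 from 441 to 59.7 and 25.8. In these 5 genes the fall up to 2-4 hpo was larger than the fall after it. LOC105234078, at 516, 97.4 and 5.88, LOC105232261, at 458, 97.2 and 7.62, and LOC105223395, at 385, 85.6 and 4.52, lost more after 2-4 hpo than before. LOC105227883, at 429, 16.3 and 1.14, had the largest fall among these 10, to 88 reads at 5-8 hpo from 30119 at 0-1 hpo.

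**Figure D3:**
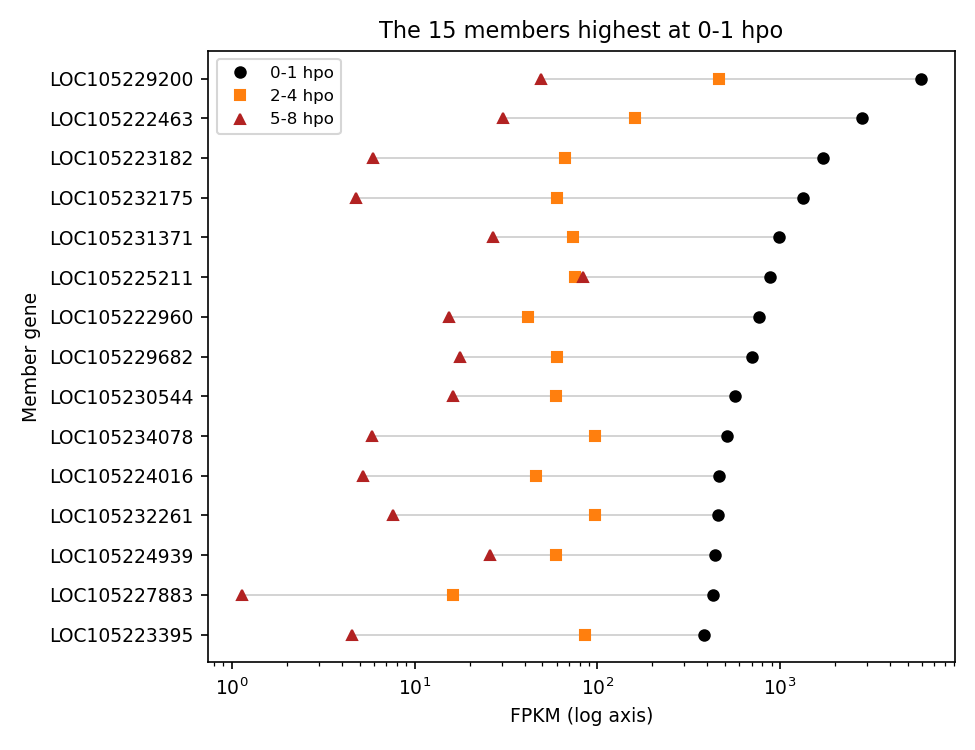
FPKM on a log axis for the 15 members highest at 0-1 hpo, with 1 symbol per age (1 library each) and a grey line joining them. All 15 lie furthest right at 0-1 hpo, and in 14 of them the 5-8 hpo symbol lies furthest left, LOC105225211 being the exception.

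On the scale of FPKM + 1, which orders the members here, the steepest falls up to 2-4 hpo were those of LOC105223182, LOC105227883 and LOC105232243. On the scale of FPKM without the added 1, LOC105227883 (NW_011876365.1, plus strand, 423510 to 424636) was 26.3-fold lower at 2-4 than at 0-1 hpo (24.7 to 27.9), LOC105223182 25.8-fold (24.9 to 26.7) and LOC105232243 25.5-fold (22.9 to 28.4). The intervals of these 3 folds overlap, so the reads do not order them. LOC105232175 was 22.1-fold lower (21.2 to 23.0). LOC105228045, LOC105222960, LOC105222463, LOC105232017, LOC105233962 and LOC105227715 were 16.5- to 19.6-fold lower. Without the added 1, LOC105230465, chosen after its values were seen, reached a similar fold from a low level, 28.4-fold (21.3 to 38.9) from FPKM 10.9, and it is overlapped on the other strand by LOC105230464 at FPKM 19.4, 1.94 and 14.0.

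By 5-8 hpo the 10 steepest falls on FPKM + 1 were 87.7- to 408-fold on FPKM itself, and the largest of these 10 was that of LOC105233962. This gene (NW_011876189.1, plus strand, 379933 to 390258) dropped from 82170 reads to 4574 and then 221, 408-fold lower over the whole interval (358 to 468). LOC105227883 was 376-fold lower (305 to 469), LOC105223182 290-fold (260 to 325), LOC105232175 280-fold (246 to 321) and LOC105232243 276-fold (201 to 390). These intervals overlap in part, so the reads do not order most of these genes. LOC105232017 was 235-fold lower (195 to 285). LOC105225218 was 187-fold lower (161 to 219), from 28684 reads to 168, and is overlapped on the other strand by LOC105225219 at FPKM 20.2, 32.2 and 31.0. Of the 10 members lowest at 2-4 hpo relative to the egg on FPKM + 1, 7 were also among the 10 lowest at 5-8 hpo. Both rankings divide by the same egg level, so part of this overlap is built in. It is therefore given as a description only.

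Larger folds on FPKM itself came from members with almost no reads left, chosen after their values were seen. LOC105223266 (NW_011876270.1, plus strand, 97018 to 99099) went from 2872 reads to 334 and then 1 read, 3153-fold lower than in the egg, with a wide interval (566 to 124596). LOC105233816 (NW_011876177.1, minus strand, 148837 to 156307) dropped from 2321 reads to 141 and then 3, 849-fold lower (290.3 to 4122). Neither was among the most abundant genes of the egg, at FPKM 20.2 and 19.9.

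CYP6G6v2 was the only member with an informative name. It encodes a cytochrome P450, one of the enzymes that oxidise fat-soluble molecules, which in insects include hormones and many insecticides. Its FPKM went from 377 in the egg to 76.4 and then 10.2, and its fall after 2-4 hpo was the larger one. It ranked 138 of the 175 members by its fall at 2-4 hpo and 30 by its fall at 5-8 hpo. In a list of 6 named genes for detoxification and antioxidant defence, 2 genes, CYP6G6v2 and SODC, were at least 4-fold lower at 2-4 hpo, and 3, with the glutathione transferase gene GST, at 5-8 hpo. The list's median log2 ratio was -1.14 at 2-4 and -2.61 at 5-8 hpo, and 0 of its genes were 4-fold higher. The other 3 were GSTT1, a glutathione transferase gene at FPKM 21.5, 33.0 and 5.24, Zn-CuSOD, a superoxide dismutase gene at 41.8, 12.2 and 11.2, and EST3A, listed at 0.410, 0.294 and 0.827. Over all genes tested, 8.28% were at least 4-fold lower at 2-4 and 10.4% at 5-8 than at 0-1 hpo. CYP6G6v2 was chosen for its falls and SODC met the same limits, so the counts and medians only describe this short list.

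No other list with genes found by name held a member. These lists held 1 to 7 genes each, and members made up 3.11% of maternally present genes, so 0 says little about these functions. Dcp1b, a decapping factor of the messenger RNA decay machinery, was present throughout at FPKM 42.7, 52.5 and 53.7. Of 4 chaperone genes, 2 (DNAJ1 and CH60) were at least 4-fold lower at 2-4 hpo and 0 at 5-8 hpo, with median log2 ratios of -1.59 and -0.47. Of 7 genes for small GTPases and kinases, 1 (Rab40) was 4-fold lower at 2-4 hpo and 0 at 5-8 hpo, with medians of -0.24 and 0.37. The shares over all genes tested were 8.28% and 10.4%. Of the markers of other tissues, the yolk protein gene VIT1 stood at FPKM 1.58, 3.02 and 1.13, and the opsin gene Rh1 had 0 reads in each library. The remaining 174 members are known by identifier alone, so what they encode is not described. The reference table lists 166 members, and all 166 as protein-coding.

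After 2-4 hpo the members took different courses. At 5-8 hpo 83 of them, 47.4%, were at least 2-fold lower than at 2-4 hpo on FPKM + 1, and 38 of these at least 4-fold lower. Over all genes tested, 21.1% were at least 2-fold lower and 6.30% at least 4-fold lower. A further 87 members were within 2-fold, and 5 were at least 2-fold higher. Over all genes tested, 30.3% were at least 2-fold higher, a share that cannot be set beside the members' count. Only the 56 members lowest at 2-4 hpo relative to the egg could rise 2-fold and still meet the limit at 5-8 hpo. The rule takes part in these counts, since it keeps out genes that were 4-fold higher or had regained 0.25 of their egg level. The median FPKM at 0-1 hpo was 79.8 for members that were 2-fold lower again, 39.4 for those within 2-fold and 86.0 for the 5 that were higher. Split at no change, it was 62.6 for the 136 members that were lower and 61.4 for the 39 that were higher. The low end had little room on this scale, as a gene near FPKM 1 can fall by 1 at most on the log2 scale of FPKM + 1.

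**Figure D4:**
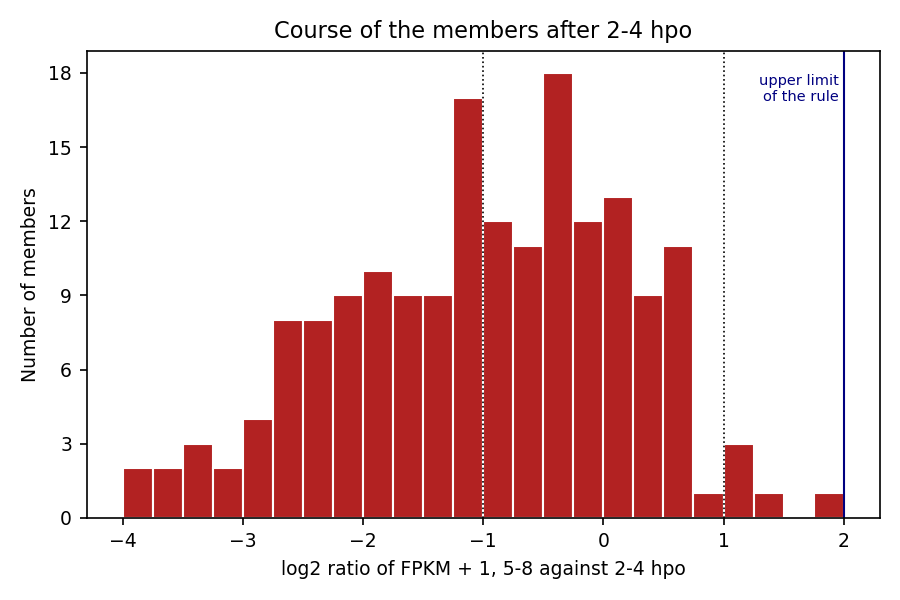
Number of members by log2 ratio of FPKM + 1 at 5-8 against 2-4 hpo, with dotted lines at 2-fold lower and 2-fold higher. The solid line is the rule's limit of 4-fold higher at 5-8 than at 2-4 hpo. For most members the limit at 5-8 against 0-1 hpo left less room to rise than this line. Most members lie below 0 (136 of 175), 83 lie at or below 2-fold lower, and 5 at or above 2-fold higher.

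For 10 members the fall after 2-4 hpo exceeded the fall before it on FPKM + 1. These were picked out after their values were seen, and their folds are given on FPKM itself. On FPKM itself they are not the full set. LOC105233962, at 17.2-fold and then 23.8-fold, and LOC105229807, at 7.91-fold and then 27.3-fold, are examples outside the 10. LOC105223395 (NW_011876274.1, plus strand, 728126 to 760559) was 4.49-fold lower at 2-4 than at 0-1 hpo (4.39 to 4.60) and then 18.9-fold lower at 5-8 than at 2-4 hpo (17.3 to 20.7). LOC105234078 (NW_011876195.1, minus strand, 356679 to 373486) was 5.30-fold and then 16.5-fold lower. LOC105225218 was 7.31-fold and then 25.6-fold lower, and LOC105232261 4.72-fold and then 12.8-fold. CYP6G6v2 was 4.93-fold (4.83 to 5.05) and then 7.53-fold lower (7.12 to 7.97). The others of the 10 were LOC105227422, LOC105230663, LOC105221979, LOC105222104 and LOC105228428, with second falls of 6.77- to 11.1-fold. The median span of these 10 genes was 5864 bases.

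The 5 members that were higher again at 5-8 hpo had fallen steeply at first, as the rule required. A member had to stay low against the egg at 5-8 hpo. Only a gene far below that limit at 2-4 hpo could therefore rise 2-fold and remain a member. The falls of these genes are given as a description only. LOC105225087 (NW_011876319.1, minus strand, 1275 to 3151) went from FPKM 241 to 15.7 and back to 57.3, a 3.64-fold gain after 2-4 hpo (3.46 to 3.83). LOC105223778 stood at 63.4, 4.99 and 13.9, LOC105223141 at 86.0, 8.19 and 20.2, LOC105222064 at 126, 8.94 and 21.5, and LOC105223852 at 34.4, 2.81 and 6.66. All 5 were 10.5- to 15.3-fold below the egg at 2-4 hpo and 4.21- to 5.84-fold below it at 5-8 hpo. Their gains ranged from 2.37- to 3.64-fold, each with an interval above 2. These 5 genes do not overlap another model.

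The level in the egg is one of the values that chose the members, so falls by level are given as a description only. Members were put into 4 equal groups by FPKM at 0-1 hpo. From the lowest group to the highest, the median log2 ratios at 2-4 against 0-1 hpo were -2.60, -2.48, -2.85 and -3.17. At 5-8 against 0-1 hpo they were -3.05, -3.44, -3.41 and -4.94. The highest group, 44 genes at FPKM 154 to 5904, had the lowest medians, and the other groups followed no single order. A gene that starts near FPKM 10 is limited on FPKM + 1 in how far it can fall. When the 5635 maternally present genes were put into 4 equal groups by FPKM at 0-1 hpo, the highest held 71 members, 5.04%, and each of the others 33 to 37, 2.34% to 2.63%. The rule makes a 4-fold fall harder to reach from a low level, and genes kept at 2-4 hpo and lower at 5-8 hpo were also most frequent in the highest group, at 10.1% against 4.33% to 6.32%.

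Gene structure, which the rule used only through the upper limit on span, showed members with more intron and ordinary exonic length. Their median span was 4086 bases against 2767 for the other maternally present genes, while their median exonic length was 1860 against 1929.5 bases. The median intronic length, span less exonic length, was 1509 bases in members and 478 in the others. At least 10000 bases of intron were found in 47 members, 26.9%, and in 14.4% of the others. Among all genes at FPKM 1 or more in any library, a set with no limit on span, it was 19.6%. The median span of that set was 2993.5 bases and its median intronic length 613.5 bases. In 4 equal groups of maternally present genes by span, 4.83% of the longest (6942 to 99630 bases) were members, and 2.48% to 2.56% of the others. In 4 such groups by exonic length the share was 2.84% to 3.55%. These are descriptions of gene lists, with no test.

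**Figure D5:**
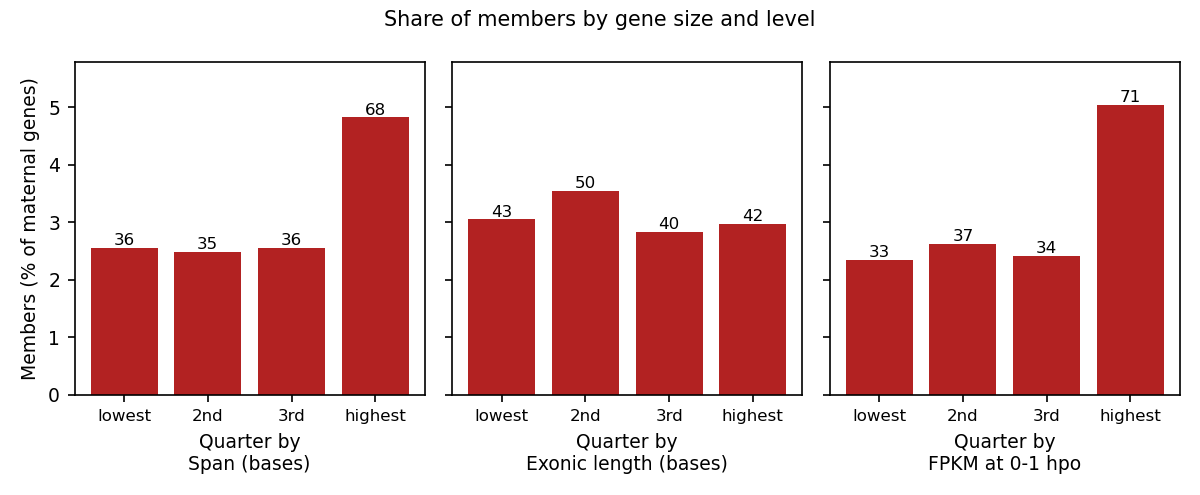
Percent of maternally present genes that are members, in 4 equal groups of these 5635 genes by span, by exonic length and by FPKM at 0-1 hpo; the number on each bar is the count of members. The highest group by span (68 members) and by FPKM (71 members) stand above the others, and the groups by exonic length hold 40 to 50 members each.

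The difference in span was present at both levels of abundance. Among genes below FPKM 41.1 at 0-1 hpo, the median of maternally present genes, the median span was 4858.5 bases for 70 members and 2852 for the others. Among genes at or above it, it was 3929 for 105 members and 2671 for the others. Without genes that overlap another model, 138 members had a median span of 4295 bases against 2997 in 3959 others. The 370 genes that were kept at 2-4 hpo (ratio above 0.5) and at least 4-fold lower at 5-8 hpo had a median span of 3308.5 bases and a median intronic length of 915.5 bases, and 21.6% of them had at least 10000 bases of intron. They too were most frequent in the longest of the 4 groups by span, at 8.52% against 5.46% to 6.38%, so long introns were not limited to the members. The 212 trough genes had a median span of 2240.5 bases, and 11.3% of them had at least 10000 bases of intron.

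Several of the most abundant members were short genes. At FPKM 100 or more at 0-1 hpo the median span was still 2969 bases in 59 members against 2507 in 925 other genes. Of the 15 highest at 0-1 hpo, 9 spanned 2000 bases or less and 5 were single-exon models, namely LOC105222463, LOC105223182, LOC105222960, LOC105229682 and LOC105224016. Of the 10 steepest at 2-4 hpo, 7 spanned 2000 bases or less, and their median span was 1203 bases. In the 4 equal groups of maternally present genes by span, the lowest ended at 1520 bases and the second at 2798. Spans of 2000 bases or less were thus common among these genes. Their share was not counted, so the counts of short members are a description only. By level at 0-1 hpo, single-exon models made up 12.5% of members and 7.87% of the other maternally present genes at FPKM 10 to 30, 5.88% and 7.15% at FPKM 30 to 100, and 11.9% and 5.73% at FPKM 100 or more, so the direction was not the same at each level. Over all members the share was 17 of 175, 9.71% (exact 95% interval 5.76 to 15.1), against 7.16% of the other maternally present genes.

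Members were spread over the genome assembly. They lay on 106 of the 607 scaffolds that carry a maternally present gene, 67 of them with 1 member each. Neighbouring models were both members in 6 cases, involving 11 genes, and 5 of these pairs lay on the same strand. Only 1 case made a run of 3: LOC105232174, LOC105232243 and LOC105232175 follow each other on the minus strand of NW_011876398.1 from 4768292 to 4773075, with 220 and 455 bases between them. Their FPKM values were 79.8, 17.3 and 6.61 for LOC105232174, then 272, 10.7 and 0.984 for LOC105232243, and 1333, 60.3 and 4.76 for LOC105232175. The next gene on either side did not share this course. LOC105232176, which starts 4773232 on the plus strand, stood at 39.2, 31.2 and 19.8, and LOC105232242 on the other side was listed at 0, 0.0306 and 0.

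Of the other neighbouring members, LOC105224939 and LOC105224941 on NW_011876316.1 lie 1771 bases apart on the minus strand, at FPKM 441, 59.7 and 25.8 and at 58.2, 7.63 and 7.80. Gene 105227792 and LOC105227763 on NW_011876362.1 had nearly the same values, 11.04, 0.826 and 1.63 against 10.05, 0.659 and 1.54. LOC105227422 and gene 105227421 on NW_011876357.1 overlap on the same strand, at 144, 22.0 and 1.98 and at 144, 12.6 and 4.84, so their reads could have been divided between them. LOC105222104 and LOC105222106 on NW_011876225.1 lie 18769 bases apart on opposite strands. The runs and pairs were looked up after the members were known, and no chance expectation is given.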

How the data were processed

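Trizol-extracted RNA was selected on poly-T beads, per the labels' protocols. HISAT2 2.0.4 and HTSeq 0.9.1 were used, per the submitters' processing notes. Not given in the sources used here are their settings, how strand was treated, the annotation and the build. The deposited read counts per gene are whole numbers, and the deposited FPKM values are scaled to length and library total, per the file headers. For 50 of 175 members the length implied by FPKM and count differed by over 0.1% from the listed length (0.789 to 1 times it), which affects levels and not ratios between ages. Positions are those of the deposited tables.

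Genes counted as tested had FPKM 1 or more at either age of a pair. A fold printed for 1 gene divides FPKM without the added 1, with exact conditional binomial 95% intervals of the reads. Calls and intervals were tried on simulated counts with counting error alone and planted falls well beyond the 4-fold limit. This covers neither variation between libraries nor genes near the limit. Names and gene types came from a RefSeq table of another assembly (ASM2337382v1), which matched 11887 of 13489 identifiers and gives no product names, so most planned lists of functions and tissue markers found no gene.

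The members and lists were chosen with earlier results of these data known. Genes named were every member with an informative name, the 15 highest at 0-1 hpo, the 10 steepest at each later age, the 5 nearest inside and outside the 2-4 hpo limit, and list genes. Neighbouring, overlapping, left-out and other named genes were picked after their values were seen. Python 3.11.15, pandas 2.3.3 and SciPy 1.17.1 were used. Alternatives were other pseudocounts, limits and scalings.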

Additional observations from a re-analysis of the deposited data

How the results depend on the processing

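The number of members was 119 to 229 under 12 of the 14 alternatives for it. It was 306 with a fold limit of 3 and 115 with median-of-ratios scaling, in place of 175. Without members that overlap another model it was 138, and with SODC 176, both added after seeing the data. On the TPM scale it was 229, and with RPM 204, of which 172 were among the 175. For the same members, the median log2 ratio of 2-4 to 0-1 hpo was -2.92 with a pseudocount of 0.1, -2.90 on the TPM scale and -2.42 with median-of-ratios scaling, in place of -2.71. For 5-8 to 0-1 hpo, -3.61 became -3.96 with a pseudocount of 0.1 and -3.94 on the TPM scale, and at 5-8 against 2-4 hpo -0.96 became -1.13 with a pseudocount of 0.1. No median changed sign under the 4 alternatives tried for each. For 2-4 and 5-8 against 0-1 hpo this is no check, because the rule chose only members far below their egg level. The sign of the median at 5-8 against 2-4 hpo was not strictly fixed by the rule. The rule limited rises after 2-4 hpo and not falls, which pushed this median down. Its sign is therefore no independent check either. With a limit of 3-fold in place of 2-fold, 55 members were lower again and 1 was higher at 5-8 than at 2-4 hpo, and with 1.5-fold 12 were higher, by construction. The median exonic length of 1860 bases is another quantity than the median span of 4086. Without the member with most reads, added after seeing the data, the members held 4.97%, 0.620% and 0.297% of reads at the 3 ages, LOC105229200 being that member at the first and second age and LOC105228905 at the third. No paired analysis was possible because there was only 1 library per age. Depth limited no member at 0-1 hpo, where the lowest had 493 reads, while at 5-8 hpo the lowest had 1 read.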

Other observations

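Some members share their position with other genes. Another model overlaps 37 of the 175 members, 21.1%, against 27.5% of the other maternally present genes. For 26 members, 14.9%, an overlapping model lies on the opposite strand, against 23.7% of the other maternally present genes. The overlapping model had at least 10 FPKM at 0-1 hpo for 22 members, a count given here for members only. The strand setting of the counts is not stated in the labels, so whether reads of such pairs were kept apart was not tested. In several pairs the courses differed. LOC105226205 fell from FPKM 292 to 27.7 and 25.2, while LOC105226247 on the other strand stood at 491, 356 and 244. LOC105232829 fell from 31.8 to 7.01 and 3.88, and LOC105232830 stood at 284, 218 and 232. LOC105222696 fell from 81.5 to 8.40 and 0.652, and LOC105222695 stood at 31.4, 21.9 and 46.7. LOC105226794 and LOC105226793 were both low at 2-4 hpo, at 24.9, 3.43 and 0.824 against 146, 17.0 and 69.2.

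A further 6 models met the limits on level and ratio and were left out by the rule on numbering or span. The long genes were LOC105224085 (span 206690 bases, FPKM 34.2, 2.84 and 1.51), LOC105225696 (374170 bases, 15.8, 2.84 and 0.597) and LOC105231865 (102919 bases, 48.4, 4.84 and 2.71). The models without a gene number were Novel00165 (58.0, 6.56 and 6.26), Novel00256 (31.3, 3.39 and 0.723) and Novel00260 (22.7, 4.16 and 3.90). Novel00256 lies on NW_011876295.1 from 23311 to 23772, on the plus strand, and ends 810 bases before LOC105224085 on the minus strand. Of members with a record in the reference table, 75 of 166, 45.2%, have more than 1 RefSeq transcript, against 36.9% of the other maternally present genes and 45.4% of the genes that were kept at 2-4 hpo and lower at 5-8 hpo.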
